A study of Mus musculus with 6 samples.

Results

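The genes described here lie at the distal end of mouse chromosome 9 and were read in 6 RNA-seq libraries of mouse embryonic stem cells (ESCs). They are 59 listed genes, of the 19489 in the table, and they were selected on the readout itself. They lie from *Lamb2* to *Lztfl1*, near the far end of the chromosome, and the set was chosen for its shared decrease in *Dppa3* OE ESCs. Of the 59, 56 had a mean FPKM (fragments per transcript length and depth) of at least 3 over the 6 libraries and were kept, as were 10403 genes of the whole table. *Ccdc51*, *Klhl18* and *Ulk4* fell under that limit. Because the OE against Con ratio picked these genes, every OE against Con value below is a description of the selection and supports nothing by itself.

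*Dppa3* OE ESCs carry the *Dppa3* coding sequence behind a CAG promoter in a vector that was transfected and selected with puromycin. The paper's methods describe stable lines from picked colonies and transient OE cells without picking. Which of the 2 was sequenced is not stated. Con ESCs received the empty vector according to the study's methods, while the labels call their genotype wild type. The paper's general culture section gives serum and LIF for J1 or D3 ESCs, and no source names the line that was sequenced. Whether the libraries labelled D7 were grown in the same way is not stated. Each genotype has libraries 1 and 2 and 1 library labelled D7, a label that no source explains. A supplementary table heads the averages of libraries 1 and 2 as D0, and that name is used here for them. The strain label differs for every sample, running through the 129 substrains in sample order. Whether the libraries are separate cultures is not stated, and p-values below then measure only the spread between these samples.

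Genes that sit side by side in a mouse chromosome mostly have promoters of their own and unrelated functions, and the distal part of chromosome 9, which corresponds to the short arm of human chromosome 3, is gene dense. It holds *Ctnnb1*, which encodes beta-catenin, the effector of WNT signalling, *Tdgf1*, which encodes the Nodal co-receptor Cripto and is a marker of undifferentiated ESCs, and *Setd2*, which encodes the methyltransferase of histone H3 lysine 36. In a segment like this the genes share a stretch of DNA rather than a pathway. Neither DNA content nor chromatin was analysed here, and in bulk RNA fewer cells of a type and less RNA per cell cannot be told apart.

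The libraries were alike in depth, with 17408954 to 18176939 estimated counts each. *Dppa3* stood at 279, 279 and 131 FPKM in OE-1, OE-2 and OE-D7, against 6.09, 3.89 and 26.2 FPKM in Con-1, Con-2 and Con-D7. The OE and Con libraries did not overlap, although the D7 pair was the closest. The 9 ESC markers, of which *Tdgf1* is also a member here, were present in all libraries and summed to 3686 to 4386 FPKM in OE and 3785 to 4575 FPKM in Con. Of these, 7 (*Pou5f1*, *Sox2*, *Klf4*, *Zfp42*, *Esrrb*, *Tdgf1* and *Tfcp2l1*) were lower in the D7 library than in both D0 libraries of each genotype. *Pou5f1* had 312 FPKM in OE-D7 and 384 FPKM in Con-D7, against 575 to 648 FPKM in the D0 libraries of OE and 623 to 683 FPKM in those of Con, while *Dppa5a* was higher in D7. The 6 trophectoderm markers summed to 1177 FPKM in OE-D7 and 661 FPKM in Con-D7, against 42.0 to 51.3 FPKM in the other OE libraries and 35.7 to 58.3 FPKM in the other Con libraries. *Krt8*, *Krt18* and *Hand1* made up most of that sum, while *Cdx2* and *Elf5* stayed at or under 1.49 FPKM in every library. The 8 fibroblast markers summed to 176 FPKM in OE-D7 and 70.6 FPKM in Con-D7, against 38.0 to 50.7 FPKM in the other OE libraries and 32.0 to 55.4 FPKM in the other Con libraries. *Col1a1* had 129 and 38.0 FPKM in OE-D7 and Con-D7 and at most 1.81 FPKM elsewhere, while *Dcn*, *Lum* and *Fap* stayed at or under 0.21 FPKM. *Thy1*, which made up most of the sum in the D0 libraries, went the other way. It had 21.0 FPKM in OE-D7, against 36.9 and 49.0 FPKM in OE-1 and OE-2. In Con-D7 it had 22.95 FPKM, against 30.8 and 53.0 FPKM in Con-1 and Con-2. The 6 primitive endoderm markers summed to 13.8 and 8.16 FPKM in OE-D7 and Con-D7. They summed to 3.0 and 3.74 FPKM in the other OE libraries and 2.98 and 4.4 FPKM in the other Con libraries. Of these 6, *Sox7* was lower in the D7 library than in both D0 libraries of each genotype, and the other 5 were higher. The 5 primed epiblast markers summed to 71.6 and 118 FPKM in OE-D7 and Con-D7, against 73.8 to 85.6 FPKM elsewhere. The D7 pair therefore stood apart from the other 4 libraries, and the part of all these markers in the results below was not tested.

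To show the control regions of the genes the results turn on, 5 promoters are printed from RefSeq (GRCm38.p6), each running from 250 bases before to 50 bases after a gene start in that table, 5′ to 3′ on the gene's strand. Capitals mark matches on either strand to the TATA box TATAAA, the CCAAT box CCAAT, the GC box GGGCGG or the motif ATGGCG. In the *Impdh2* promoter a TATAAA match on the reverse strand runs into a CCAAT match. For *Map4* and *Setd2* that start lies inside the gene, downstream of the outer gene start given below. *Impdh2*, *Uqcrc1* and *Map4* were among the 4 members called lower in OE by edgeR with a replicate block, in the contrast that chose the members, though by neither edgeR without the block nor DESeq2. *Setd2* was a chromatin gene whose ratio changed between pairs, and *Ctnnb1* was among the 5 most abundant members.
Impdh2: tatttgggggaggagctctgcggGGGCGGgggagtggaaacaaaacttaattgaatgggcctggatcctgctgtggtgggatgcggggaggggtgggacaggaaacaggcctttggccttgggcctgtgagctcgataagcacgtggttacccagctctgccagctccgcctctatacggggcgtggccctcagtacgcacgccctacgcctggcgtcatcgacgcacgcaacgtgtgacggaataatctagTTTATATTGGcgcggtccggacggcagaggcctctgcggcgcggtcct
Uqcrc1: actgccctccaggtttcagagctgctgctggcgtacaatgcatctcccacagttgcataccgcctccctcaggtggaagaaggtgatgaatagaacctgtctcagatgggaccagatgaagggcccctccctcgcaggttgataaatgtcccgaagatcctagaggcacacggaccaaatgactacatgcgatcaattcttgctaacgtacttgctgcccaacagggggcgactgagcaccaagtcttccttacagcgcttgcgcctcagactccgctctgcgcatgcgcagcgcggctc
Map4: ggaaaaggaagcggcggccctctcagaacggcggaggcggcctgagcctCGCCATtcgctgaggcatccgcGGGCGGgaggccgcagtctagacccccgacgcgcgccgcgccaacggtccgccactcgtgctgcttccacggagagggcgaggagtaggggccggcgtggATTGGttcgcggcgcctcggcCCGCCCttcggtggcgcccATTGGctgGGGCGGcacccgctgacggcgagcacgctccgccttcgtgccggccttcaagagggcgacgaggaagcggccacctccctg
Setd2: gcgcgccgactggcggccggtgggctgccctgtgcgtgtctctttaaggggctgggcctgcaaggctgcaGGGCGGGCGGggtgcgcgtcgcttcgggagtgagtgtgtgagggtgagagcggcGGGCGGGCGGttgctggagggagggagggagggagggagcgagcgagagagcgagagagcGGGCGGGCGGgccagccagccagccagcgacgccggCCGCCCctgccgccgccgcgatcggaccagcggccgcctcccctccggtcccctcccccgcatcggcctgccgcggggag
Ctnnb1: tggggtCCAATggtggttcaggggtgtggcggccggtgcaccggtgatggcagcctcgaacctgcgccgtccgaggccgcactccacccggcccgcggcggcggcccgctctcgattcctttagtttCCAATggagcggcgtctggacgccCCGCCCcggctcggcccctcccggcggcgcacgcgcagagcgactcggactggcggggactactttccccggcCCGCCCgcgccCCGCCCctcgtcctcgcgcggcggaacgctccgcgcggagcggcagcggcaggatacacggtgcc

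The GC content of the 5 promoters ran from 56.3% in *Uqcrc1* to 77.3% in *Setd2*. *Map4* and *Setd2* held 3 and 7 GC box matches, *Ctnnb1* held 3, *Impdh2* held 1 and *Uqcrc1* held none of the 4 motifs. A promoter was listed for 54 of the 56 members, without *Golga4* and *Limd1*. Their GC content had a median of 63.5%, against 61.3% in 8422 promoters of genes that reach a mean of 3 FPKM and 52.7% in all 27025 promoters. GGGCGG occurred in 77.8% of the members' promoters, against 67.4% of promoters of expressed genes and 35.9% of all promoters. ATGGCG occurred in 25.9%, against 17.5% and 9.24% of the same 2 backgrounds, CCAAT in 42.6%, against 40.2% and 37.9%, and TATAAA in 7.41%, against 6.35% and 14.2%. A match is a description of the letters and not a site.

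Along chromosome 9 the OE/Con ratio was below 0 in all 3 pairs in every bin that held members. The ratio is the log2 of FPKM plus 0.5 in an OE library over that in the Con library of the same number, and it was taken within each pair. In bins of 20 consecutive genes, the last bin without members, *Mapkapk3* to *Ip6k1*, had medians of -0.0033, -0.01 and 0.11 in pair 1, pair 2 and the D7 pair. The next bin, *Gmppb* to *Arih2*, is the one in which the segment begins and had -0.06, -0.07 and -0.10. The bin from *Slc25a20* to *Setd2* (chr9:108662136-110618633), with 18 members, had -0.21, -0.18 and -0.16. Proximal bins varied too, and *S1pr2* to *Carm1*, which holds no member and lies far from the segment, had -0.12, -0.09 and -0.07, while *Tmem30a* to *Cyb5r4* had 0.16, 0.07 and 0.12. The bins hold 46 of the 56 members, and the 10 beyond *Ano10* fell in no complete bin.

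**Figure D1:**
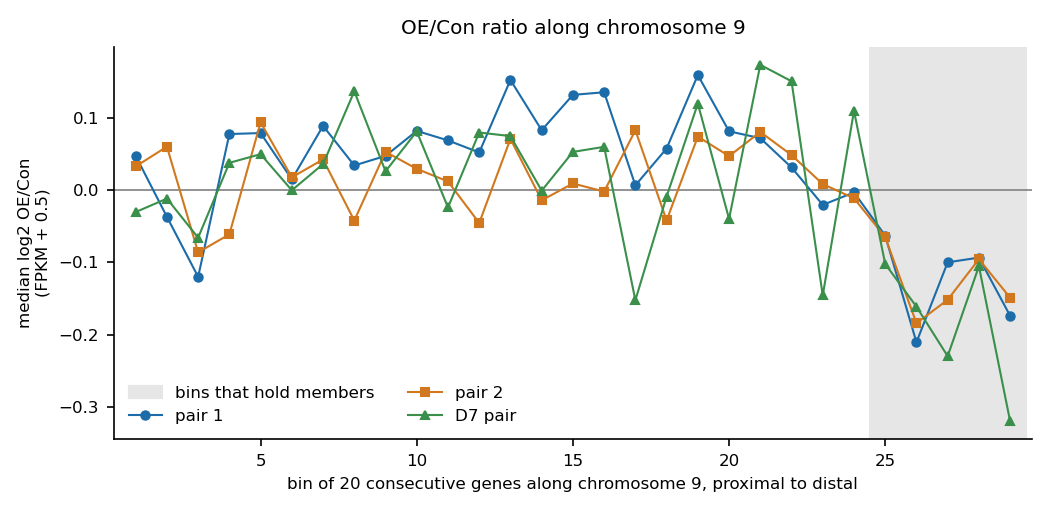
Median log2 OE/Con ratio (FPKM + 0.5) in bins of 20 consecutive genes along chromosome 9, for pair 1, pair 2 and the D7 pair, with bins that hold members shaded. The 5 shaded bins lie below 0 in all 3 pairs, from -0.06 to -0.32, and the bin before them reaches 0.11 in the D7 pair.

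The other 3 bins of the segment were also below 0 in each pair. From *Nradd* to *Trim71* the medians were -0.10, -0.15 and -0.23, from *Cnot10* to *Myd88* -0.09, -0.10 and -0.11, and from *Acaa1a* to *Ano10* -0.17, -0.15 and -0.32. Over the genome there were 510 such bins. The 505 without members had a mean-of-pairs median between -0.13 and 0.28, and the 4 lowest bins of all lay in the segment, at -0.20, -0.16, -0.15 and -0.15. A median of -0.05 or less in all 3 pairs was found in 10 bins, 6 of them on chromosome 9 and 5 of those with members. One bin of chromosome 6 (*Akr1b8* to *Parp12*) had -0.14, -0.15 and -0.25. In each pair it lay below the member bins *Gmppb* to *Arih2* and *Cnot10* to *Myd88*. It was also 1 of 4 bins with all 3 medians at or below -0.1, of which 3 held members. *Kdm7a* to *Ezh2* on chromosome 6 had -0.07, -0.07 and -0.28, and *Slx1b* to *AI467606* on chromosome 7 had -0.12, -0.17 and -0.09. By the mean-of-pairs median the bin from *Gmppb* to *Arih2* ranked 18 from the lowest.

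The start of the segment was also read gene by gene. Proximal of the first member, *Ccdc71* (chr9:108452502-108465946) had 15.2, 14.1 and 13.9 FPKM in OE-1, OE-2 and OE-D7, against 13.1, 11.7 and 14.5 FPKM in Con-1, Con-2 and Con-D7. Its ratios were 0.21, 0.26 and -0.06. *Usp4* and *Ccdc36*, the next genes toward the centromere, had means over the 3 pairs of -0.06 and -0.03. None of the 3 was lower in OE in every pair. *Ccdc36* and *Ccdc71* also lie within the span that the selection rule named, but they were not listed and are left out of the counts of the stretch below. The start at *Lamb2* is therefore that of the list and not a measured edge.

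The first member, *Lamb2* (chr9:108479847-108490530), which encodes the laminin beta 2 chain, had 6.76, 9.64 and 13.7 FPKM in OE-1, OE-2 and OE-D7, against 7.31, 12.6 and 10.8 FPKM in Con-1, Con-2 and Con-D7. It was lower in OE in both D0 pairs and higher in the D7 pair. The second, *Usp19* (chr9:108490607-108502337), a deubiquitinase gene, had 33.5, 22.6 and 31.2 FPKM in the OE libraries, against 44.6, 25.2 and 33.1 FPKM in the Con libraries, and was lower in every pair. The third, *Qars* (chr9:108508005-108515941), which encodes glutaminyl-tRNA synthetase, had 73.2, 69.2 and 75.3 FPKM in OE, against 86.6, 85.5 and 88.8 FPKM in Con. For *Qars* the 3 OE libraries lay below all 3 Con libraries.

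Of the 3 last members none was lower in OE in every pair, while *Exosc7*, a little before them, had the lowest mean of all members, -0.36. *Limd1* (chr9:123478661-123521552), which encodes a LIM domain protein, had ratios of -0.19, -0.17 and 0.08. *Sacm1l* (chr9:123529753-123592600), which encodes a phosphoinositide phosphatase of the ER and Golgi, had 18.2, 22.8 and 20.9 FPKM in OE-1, OE-2 and OE-D7, against 16.4, 20.9 and 22.8 FPKM in Con-1, Con-2 and Con-D7. *Lztfl1* (chr9:123694404-123717625), a regulator of ciliary traffic, had 5.65, 7.38 and 6.0 FPKM in OE and 6.11, 6.69 and 6.24 FPKM in Con. The OE and Con libraries overlapped for both. Only 3 more genes at a mean of 3 FPKM or above lay beyond *Lztfl1*, and *Fyco1*, *Gm39469* and *LOC108167320* had means over the 3 pairs of -0.07, -0.17 and -0.45.

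Taken over the 56 members, the median OE/Con ratio was -0.19 in pair 1, -0.15 in pair 2 and -0.17 in the D7 pair. As percentages these were differences of -12.3%, -9.93% and -11.2%. The median over all 10403 genes was 0.04, 0.02 and 0.02 in the same pairs, and over the 491 genes of the rest of chromosome 9 it was 0.07, 0.02 and 0.02. The members' ratio was below 0 for 43 genes in pair 1, 46 in pair 2 and 44 in the D7 pair. The mean of the 3 pairs was below 0 for 50 of 56. The 56 members together took 0.632%, 0.678% and 0.619% of the counts of OE-1, OE-2 and OE-D7, against 0.713%, 0.764% and 0.719% of those of Con-1, Con-2 and Con-D7, so that every OE library had a smaller share than every Con library. Without *Tdgf1*, the most abundant member, the shares were 0.528%, 0.498% and 0.575% in OE and 0.618%, 0.556% and 0.641% in Con, smaller in OE within each pair and overlapping between pairs.

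**Figure D2:**
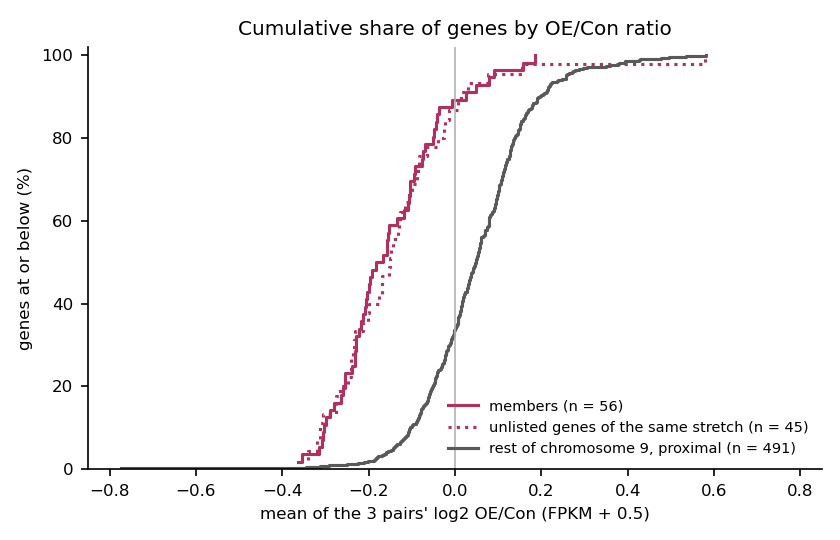
Cumulative share of genes (%) against the mean of the 3 pairs' log2 OE/Con ratio (FPKM + 0.5), for the 56 members, the 45 unlisted genes of the same stretch and the 491 genes of the rest of chromosome 9. The curves of the members and of the unlisted genes run close together, with medians of -0.17 and -0.15, and the rest of the chromosome lies to their right, with a median of 0.05.

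The unlisted neighbours of the members showed much the same ratios. The stretch from *Lamb2* to *Lztfl1* holds 101 genes at a mean of 3 FPKM or above, of which 45 were not listed. Those 45 had median ratios of -0.12, -0.12 and -0.19 in pair 1, pair 2 and the D7 pair. They were lower in OE in all 3 pairs in 26 of 45 genes (57.8%), and the members in 30 of 56 (53.6%). The same pattern held for 6.92% of the genes of the rest of chromosome 9 and for 10.6% of all genes. The listing had left a gap between *Epm2aip1* and *Golga4* (chr9:111279093-118506196) with 20 unlisted genes, which had a median over the 3 pairs of -0.09 and were lower in OE in every pair in 12 cases.

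The size of the difference varied among members, more so at D7. The SD of the ratio over the 56 members was 0.18 in pair 1, 0.16 in pair 2 and 0.26 in the D7 pair, against 0.22, 0.23 and 0.29 over all genes. For 1 gene over the 3 pairs, the SD had a median of 0.14 in the members and 0.14 in all genes. The middle part of the members ran from -0.30 to -0.03 in pair 1, from -0.25 to -0.06 in pair 2 and from -0.37 to -0.04 in the D7 pair (lower and upper quartile). Over 56 genes the Pearson r of pair 1 with pair 2 was -0.22, of pair 1 with the D7 pair 0.14 and of pair 2 with the D7 pair 0.13, where each ratio rests on its own 2 libraries and neighbouring genes are not independent. The same 3 values were 0.23, 0.20 and 0.07 over all 10403 genes and 0.52, -0.12 and 0.12 over the 45 unlisted genes of the stretch.

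**Figure D3:**
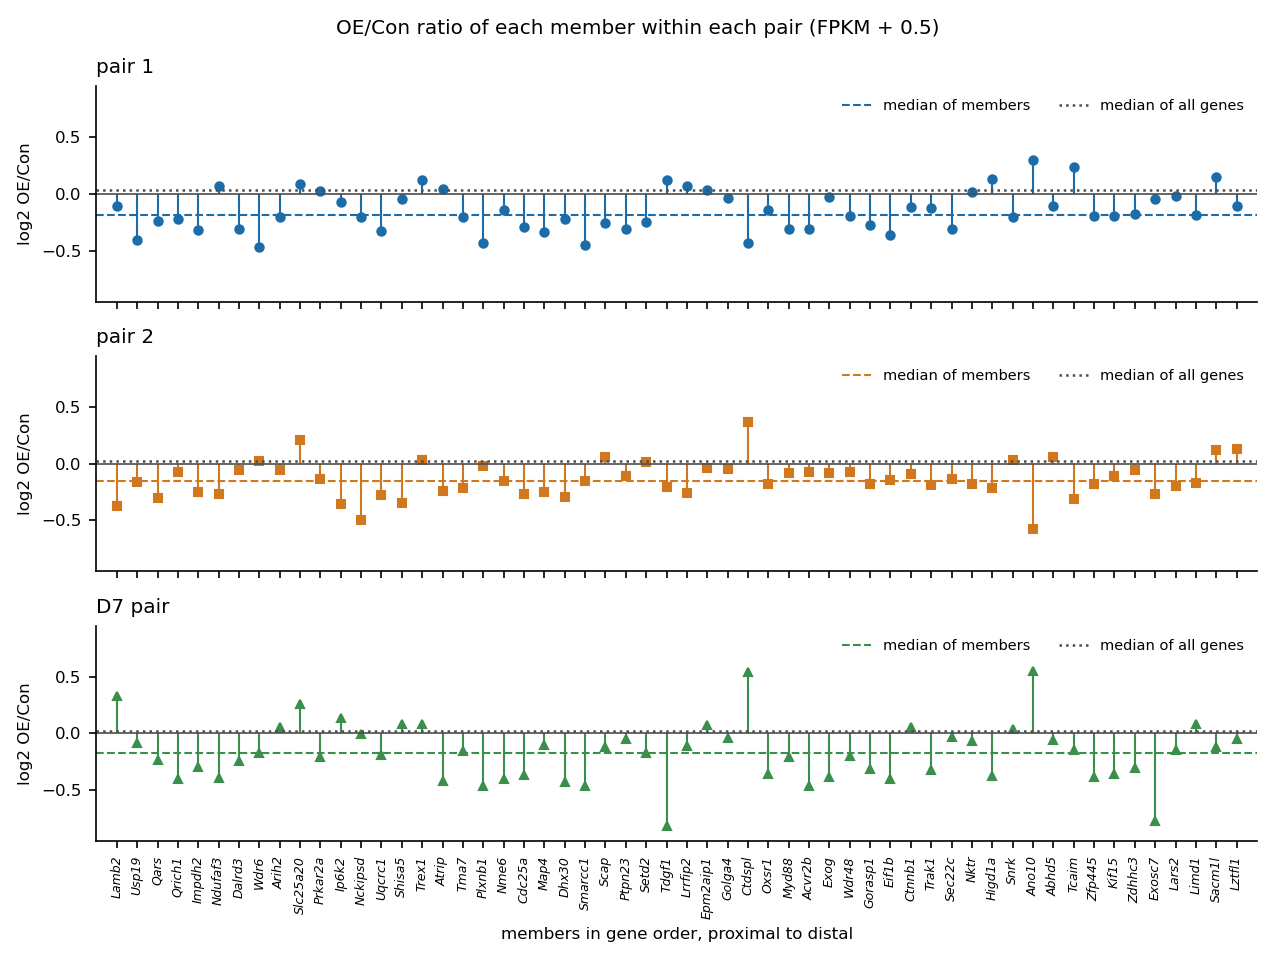
Log2 OE/Con ratio (FPKM + 0.5) of each of the 56 members in gene order, in pair 1, pair 2 and the D7 pair, with the median of the members (dashed) and of all genes (dotted). Most members lie below 0 in each pair, 43, 46 and 44 of 56, and single genes such as *Ctdspl* and *Ano10* change side between pairs.

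The median was lowest in the most abundant members and lower in the proximal than in the distal members. The 29 members with a mean FPKM of at least 20 had a median over the 3 pairs of -0.22, the 8 between 10 and 20 had -0.11 and the 19 under 10 had -0.12. All genes of the same 3 classes had medians of 0.00074, 0.04 and 0.07. The proximal 28 members had a median of -0.21 and the distal 28 of -0.13.

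Few single genes passed a test. With edgeR on libraries 1 and 2 and no block, 0 of 56 members passed an adjusted p of 0.05 and 0% of 13494 genes were called lower, although 53 members had a negative log2 fold change. No member reached an unadjusted p under 0.05 in that fit, and DESeq2 called 0 as well. Libraries of the same number deviated together, so the replicate number was also used as a block. The edgeR fit with the block called 4 members lower and 0 higher, where 0.126% of all genes were called lower, and 24 members had an unadjusted p under 0.05, against 3.63% of all genes on the lower side. Since this contrast chose the members, nothing is read from these counts. DESeq2 with the block called 0 members, and the blocked edgeR fit without the filter on low values called 0.

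The 4 members called with the block were *Uqcrc1*, *Map4*, *Impdh2* and *Smarcc1*. *Uqcrc1* (NCBI gene 22273, chr9:108936648-108949641), which encodes a core subunit of respiratory complex III, had 149.7, 142 and 120.3 FPKM in OE-1, OE-2 and OE-D7, against 188, 173 and 137 FPKM in Con-1, Con-2 and Con-D7. Its log2 fold change at D0 was -0.35 (SE 0.07, edgeR adjusted p = 0.0265). It was lower in OE in each pair, and OE and Con of libraries 1 and 2 did not overlap.

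*Map4* (NCBI gene 17758, chr9:109929841-110083954), which encodes a microtubule-associated protein, had 61.9, 64.8 and 111 FPKM in the OE libraries and 78.4, 77.2 and 119 FPKM in the Con libraries, with a log2 fold change of -0.33 (SE 0.07, edgeR adjusted p = 0.0307). *Impdh2* (NCBI gene 23918, chr9:108560436-108565577), which encodes the rate-limiting enzyme of guanine nucleotide synthesis, had 214, 199 and 217 FPKM in OE, against 267, 236 and 267 FPKM in Con, with a log2 fold change of -0.33 (SE 0.07, edgeR adjusted p = 0.0309). All 3 OE libraries of *Impdh2* lay below all 3 Con libraries. *Smarcc1* (chr9:110132024-110240178), which encodes the BAF155 subunit of SWI/SNF chromatin remodelling complexes, had 54.6, 41.9 and 45.5 FPKM in OE, against 74.8, 46.5 and 63.0 FPKM in Con, with a log2 fold change of -0.35 (SE 0.08, edgeR adjusted p = 0.05, under the threshold only before rounding). Its OE-1 level lay above that of Con-2, and without Con-1 the sign of its unblocked estimate turned, to 0.07.

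**Figure D4:**
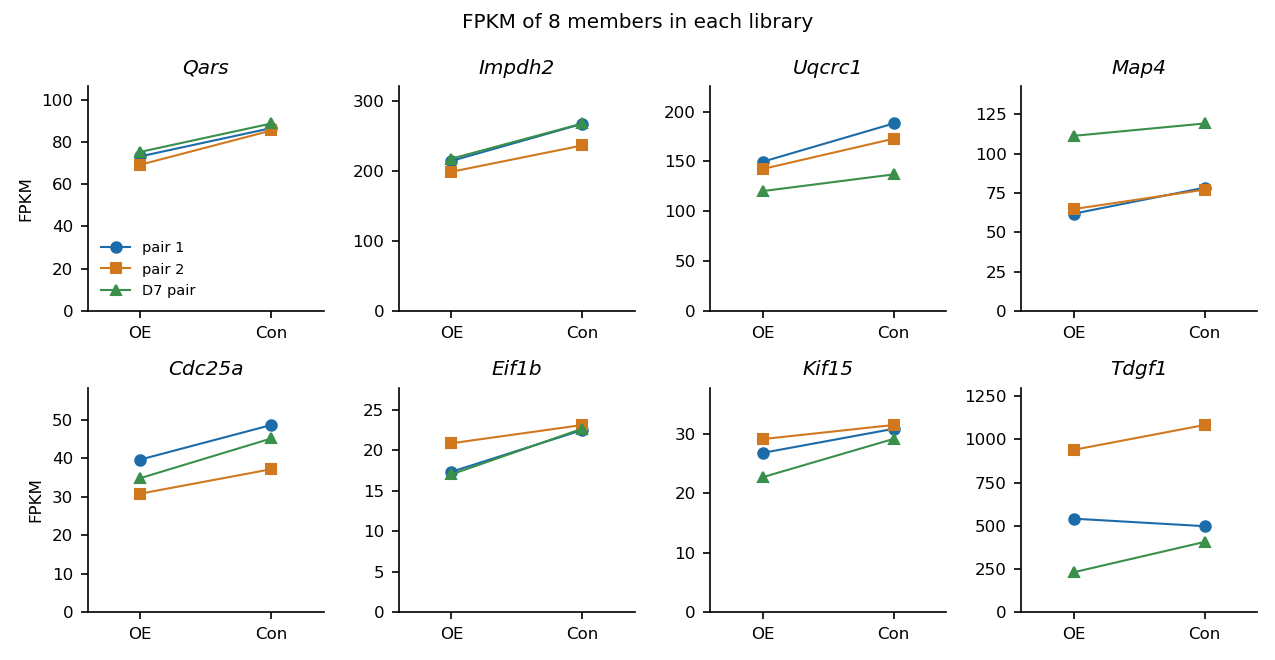
FPKM of 8 members in OE (left) and Con (right), with lines joining the libraries of pair 1, pair 2 and the D7 pair. Each line is lower at OE except that of *Tdgf1* in pair 1, which had 541 FPKM in OE-1 and 498 FPKM in Con-1.

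When all 3 pairs were fitted with the block, 0 members were called and 0.00724% of 13809 genes were called lower. In that fit 26 members had an unadjusted p under 0.05, against 4.15% of all genes on the lower side, and DESeq2 with the block called 4. Without the block the edgeR fit of all 3 pairs called 0 members, with 9 at an unadjusted p under 0.05. Counted without a model, both OE libraries lay below both Con libraries of D0 for 17 of 56 members, where 4.76% of all genes did so. All 3 OE libraries lay below all 3 Con libraries for 7 members (*Qars*, *Impdh2*, *Ptpn23*, *Oxsr1*, *Gorasp1*, *Eif1b* and *Kif15*), where 0.692% of all genes did so. These counts also rest on the contrast that chose the members.

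Genes of RNA and protein synthesis were the group with the most members lower in OE in each pair, 7 of 9, with a group median over the 3 pairs of -0.21. *Eif1b* (chr9:120492606-120495327), which encodes a relative of the initiation factor eIF1, had 17.4, 20.9 and 17.1 FPKM in OE-1, OE-2 and OE-D7, against 22.5, 23.1 and 22.7 FPKM in Con-1, Con-2 and Con-D7. *Dhx30* (chr9:110084319-110117616), an RNA helicase gene, had 35.4, 29.5 and 24.1 FPKM in OE, against 41.4, 36.4 and 32.6 FPKM in Con. *Tma7* (chr9:109077988-109082381), named for its association with the translation machinery in yeast, had 152, 154 and 113 FPKM in OE, against 176, 179.5 and 125 FPKM in Con, among the steadiest differences of the set. *Tma7* had ratios of -0.21, -0.22 and -0.15, and *Qars* of -0.24, -0.30 and -0.24.

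*Exosc7* (chr9:123113231-123136129), which encodes a subunit of the RNA exosome, had the lowest mean over the 3 pairs of all members, -0.36, but an uneven one. It had 40.3, 32.8 and 18.8 FPKM in OE-1, OE-2 and OE-D7, against 41.7, 39.6 and 32.4 FPKM in Con-1, Con-2 and Con-D7, and most of the difference came from the D7 pair. The neighbours *Dalrd3* and *Wdr6* overlap at their ends by 463 bases. Reads in that shared stretch cannot be told apart unless counting used strand, which is not stated. *Wdr6* was lower in OE in 2 of 3 pairs and *Dalrd3* in 3. *Lars2*, the mitochondrial leucyl-tRNA synthetase gene, was lower in all 3 pairs, with ratios of -0.02, -0.19 and -0.14.

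Cell cycle and DNA damage genes held 5 members with a group median of -0.22, of which 3 were lower in every pair. *Cdc25a* (chr9:109875518-109893895), which encodes a phosphatase that activates cyclin-dependent kinases, had 39.7, 30.8 and 34.9 FPKM in OE-1, OE-2 and OE-D7, against 48.6, 37.2 and 45.1 FPKM in Con-1, Con-2 and Con-D7. Its ratios of -0.29, -0.27 and -0.37 were steady between pairs, while the levels of OE-1 and Con-2 overlapped. *Kif15*, the gene of a mitotic spindle motor, had 26.8, 29.1 and 22.7 FPKM in OE, and 30.8, 31.5 and 29.1 FPKM in Con.

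*Atrip* and *Trex1* lie next to each other. Both were higher in OE in pair 1, and they went different ways in pair 2 and the D7 pair. *Atrip* (chr9:109059747-109074124), which encodes the partner of the ATR checkpoint kinase, had 8.27, 7.84 and 5.96 FPKM in OE-1, OE-2 and OE-D7, against 8.04, 9.37 and 8.11 FPKM in Con-1, Con-2 and Con-D7. *Trex1* (chr9:109057932-109059723), which encodes a DNA exonuclease, had 5.38, 4.44 and 3.87 FPKM in OE, against 4.92, 4.32 and 3.63 FPKM in Con. *Trex1* was higher in OE in each pair, by log2 ratios of 0.12, 0.04 and 0.08, but its OE and Con libraries overlapped.

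Chromatin and transcription genes held 6 members with a group median of -0.18, and 3 were lower in every pair. Besides *Smarcc1* these were *Qrich1* and *Zfp445*, a KRAB zinc finger gene, with means over the 3 pairs of -0.23 and -0.25. *Setd2* (chr9:110532500-110618633) had 27.2, 23.2 and 27.7 FPKM in OE-1, OE-2 and OE-D7, against 32.4, 23.0 and 31.2 FPKM in Con-1, Con-2 and Con-D7, with ratios of -0.25, 0.01 and -0.17. *Ctdspl* (chr9:118926536-119044119), which encodes a small phosphatase, was the member just inside the FPKM limit, with a mean of 3.005 FPKM, and its ratios of -0.43, 0.37 and 0.54 were among the least even. Its D0 ratios rest on few counts, 66 and 90 in OE-1 and OE-2 against 104 and 60 in Con-1 and Con-2, and its D7 ratio on 641 in OE-D7 against 432 in Con-D7.

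The 10 members placed with mitochondria and metabolism had a group median of -0.16, and 4 of them were lower in every pair. *Slc25a20* (chr9:108662136-108684642), which encodes the mitochondrial carnitine-acylcarnitine carrier, was the member with the highest mean ratio, 0.19. It had 30.7, 20.4 and 33.2 FPKM in OE-1, OE-2 and OE-D7, against 28.9, 17.6 and 27.6 FPKM in Con-1, Con-2 and Con-D7, higher in OE in every pair and with overlapping groups. *Slc25a20* and *Trex1* were the only 2 of the 56 that were lower in OE in no pair. *Ano10* (chr9:122175874-122294444), an anoctamin gene placed in this group, had 1.69, 3.47 and 11.0 FPKM in OE, against 1.28, 5.42 and 7.35 FPKM in Con, and its ratios of 0.30, -0.58 and 0.55 had the widest spread of the set, an SD of 0.59. The pair 1 ratio of *Ano10* rests on few counts, 81 in OE-1 against 62 in Con-1. At a D0 mean of 2.965 FPKM, *Ano10* reached the FPKM limit only through the D7 libraries. *Nme6* and *Exog*, for a nucleoside diphosphate kinase relative and a mitochondrial nuclease, were lower in each pair.

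Signalling and receptor genes were the largest group, 12 members with a median of -0.15, of which 5 were lower in every pair. *Tdgf1* (chr9:110939608-110946158) was the most abundant member of the set. It had 541, 939 and 232 FPKM in OE-1, OE-2 and OE-D7, against 498, 1082 and 407 FPKM in Con-1, Con-2 and Con-D7. Its ratios of 0.12, -0.21 and -0.81 had an SD of 0.47, the widest after *Ano10* and *Ctdspl*. *Ctnnb1* (chr9:120933400-120960507) had 189.8, 189 and 269.5 FPKM in OE, against 206, 201 and 259.6 FPKM in Con, with ratios of -0.11, -0.09 and 0.05.

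*Plxnb1* (chr9:109093849-109119915), which encodes a semaphorin receptor, had 4.59, 3.58 and 3.91 FPKM in OE-1, OE-2 and OE-D7, against 6.36, 3.65 and 5.57 FPKM in Con-1, Con-2 and Con-D7. The pair 2 values were nearly equal, and the mean ratio of -0.31 came from the others. *Acvr2b*, an activin receptor gene, *Myd88*, the adaptor gene of Toll-like receptors, *Oxsr1*, a kinase gene of the WNK pathway, and *Nckipsd*, for an adaptor that binds NCK, were lower in each pair. For *Nckipsd* the D7 pair was nearly equal, with ratios of -0.21, -0.50 and -0.006. *Snrk*, a kinase gene and the second member above the FPKM limit at a mean of 3.36 FPKM, had 2.88, 3.04 and 4.0 FPKM in OE and 3.4, 2.96 and 3.88 FPKM in Con. The nearest members below the limit were *Ccdc51* and *Klhl18*. *Ccdc51* had 2.57, 2.73 and 2.03 FPKM in OE, against 2.63, 3.11 and 2.29 FPKM in Con, and *Klhl18* had 2.27, 1.85 and 3.51 FPKM in OE, against 2.97, 1.33 and 2.94 FPKM in Con.

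The 10 genes of membrane traffic and sterol sensing had a median of -0.13, and 6 were lower in every pair, among them the golgin gene *Golga4*, the Golgi stacking gene *Gorasp1*, the ESCRT partner gene *Ptpn23* and the palmitoyltransferase gene *Zdhhc3*. *Golga4* was even to the point of a ratio of -0.04 in each pair, the smallest spread of the set. *Gorasp1* had 4.92, 4.61 and 4.50 FPKM in OE-1, OE-2 and OE-D7, against 6.06, 5.27 and 5.72 FPKM in Con-1, Con-2 and Con-D7, and its groups did not overlap. *Gorasp1* overlaps *Wdr48*. *Scap*, the sterol sensor that escorts SREBP, had ratios of -0.26, 0.05 and -0.12. Of the ubiquitin pathway genes *Usp19*, *Arih2* and *Wdr48*, 2 were lower in every pair, and the remaining member, *Epm2aip1*, had a mean ratio of 0.03.

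In D7 against D0 the members' medians lay somewhat above those of all genes, and single members moved both ways. The median log2 D7/D0 ratio of the 56 members was -0.02 in OE and 0.09 in Con, against -0.06 and -0.03 over all genes. The distal 28 members had medians of 0.04 in OE and 0.18 in Con, and the proximal 28 had -0.05 in both. In the edgeR fit with genotype as a term the members' median log2 fold change was -0.0018, against -0.03 over all genes tested. Below 0 were 28 of 56 members. The bins with members had medians of -0.26 to 0.12 in OE and -0.19 to 0.19 in Con, inside the range of the other 505 bins, which ran from -0.49 to 0.59 in OE and from -0.35 to 0.55 in Con. This comparison did not choose the members, although it uses the same libraries.

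Gene by gene, edgeR called 2 members lower and 4 higher in D7 at an adjusted p under 0.05. Of all genes 3.06% were called lower and 6.77% higher, so the members' shares of 3.57% and 7.14% were close to the background. One of the 4, *Ctdspl*, reached the FPKM limit only through the D7 libraries, so that its rise is built into that limit. The same holds for *Ano10*, which was not called. *Prkar2a* (chr9:108692143-108750444), which encodes a regulatory subunit of protein kinase A, had 12.1 and 14.1 FPKM in OE-D7 and Con-D7, against 24.4, 24.4, 24.0 and 26.8 FPKM in OE-1, OE-2, Con-1 and Con-2. Its log2 fold change was -0.94 (SE 0.11, edgeR adjusted p = 0.0107), and the D7 and D0 libraries did not overlap. *Tma7*, with the values given above, had -0.48 (SE 0.10, edgeR adjusted p = 0.0454).

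*Ctdspl* had 8.39 and 5.61 FPKM in OE-D7 and Con-D7, against 0.82, 1.15, 1.28 and 0.78 FPKM in OE-1, OE-2, Con-1 and Con-2, a log2 fold change of 2.74 (SE 0.31, edgeR adjusted p = 0.00997). *Limd1* had 9.01 and 8.47 FPKM in OE-D7 and Con-D7, against 4.26, 3.23, 4.92 and 3.71 FPKM in OE-1, OE-2, Con-1 and Con-2, a log2 fold change of 1.10 (SE 0.23, edgeR adjusted p = 0.0402). Both genes were higher in each D7 library than in any D0 library. *Abhd5* (chr9:122351616-122381524), which encodes the activator of adipose triglyceride lipase, had 8.07 and 8.41 FPKM in OE-D7 and Con-D7, against 4.58, 5.10, 4.99 and 4.88 FPKM in OE-1, OE-2, Con-1 and Con-2, a log2 fold change of 0.75 (SE 0.14, edgeR adjusted p = 0.032). *Map4* rose by a log2 fold change of 0.72 (SE 0.10, edgeR adjusted p = 0.0156) with log2 D7/D0 ratios of 0.81 in OE and 0.61 in Con.

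These calls rest on the D7 pair as a whole. Without Con-D7, or without OE-D7, edgeR called 0 members in either direction, with 3 lower and 6 higher at an unadjusted p under 0.05 in the first case and 2 lower and 3 higher in the second, and with all libraries DESeq2 called 3 lower and 7 higher. The D7 label cannot be told apart from the higher trophectoderm and collagen markers of both its libraries. The same holds for the 5 higher primitive endoderm markers and the 7 lower ESC markers. *Tdgf1*, which had 232 and 407 FPKM in OE-D7 and Con-D7, against 541, 939, 498 and 1082 FPKM in OE-1, OE-2, Con-1 and Con-2, had a log2 fold change of -1.29 and did not pass (SE 0.38, edgeR adjusted p = 0.0896).

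**Figure D5:**
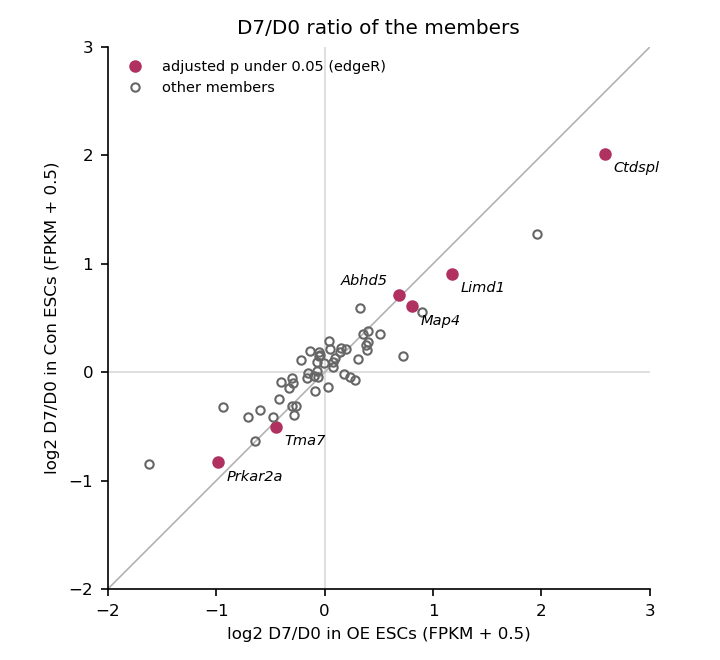
Log2 D7/D0 ratio (FPKM + 0.5) of the 56 members in OE ESCs (x axis) and in Con ESCs (y axis), with the line of equal ratios and the 6 members with an edgeR adjusted p under 0.05 filled. Members spread to both sides of 0, with medians of -0.02 in OE and 0.09 in Con, and reach from *Tdgf1*, at -1.62 in OE and -0.85 in Con, to *Ctdspl*, at 2.59 in OE and 2.02 in Con.

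The OE effect in the D7 pair was set against that in libraries 1 and 2 with an interaction term. Without a block, edgeR called 0 of 56 members and 0% of all genes, with 0 members at an unadjusted p under 0.05, and DESeq2 called 0 members. The members' median difference in the OE effect was 0.0039 on the log2 scale in that fit, -0.12 without Con-1 and 0.082 without Con-2. The standard errors of single genes were wide, 0.26 for *Uqcrc1* and 0.28 for *Impdh2*. With the replicate number as a block, a fit added after seeing the data, the median was -0.0020 and these standard errors were 0.13 and 0.12. That fit called 1 of 56 members lower and 0 higher, where 0.507% of all genes were called lower. The member was *Tdgf1*, with a difference in the OE effect of -0.75 (SE 0.13, edgeR adjusted p = 0.0016), and DESeq2 with the block called 0.

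Within a genotype, libraries 2 and 1 differed in many genes. In library 2 against library 1, edgeR with genotype as a term called 18 members lower and 9 higher, against 25.4% of all genes called lower and 26% called higher. As shares of the 56 members these were 32.1% and 16.1%. *Wdr6* had 19.4 FPKM in OE-2 and 19.1 FPKM in Con-2, against 36.5 FPKM in OE-1 and 50.8 FPKM in Con-1, and its log2 fold change of library 2 over library 1 was -1.26 (SE 0.10, edgeR adjusted p = 1.37e-07). *Tdgf1* moved the other way, by 0.86 (SE 0.08, edgeR adjusted p = 3.04e-07). *Usp19* had -0.79, *Slc25a20* -0.75 and *Smarcc1* -0.63, while *Ano10* had 1.46 and *Higd1a* 0.65. The members' median in this comparison was -0.13, against 0.02 over all genes.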

How the data were processed

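Messenger RNA was measured in 3 OE and 3 Con ESC libraries on BGISEQ-500. The paper's methods give Bowtie2, mm10 and RSEM, whose raw estimated counts the authors deposited. A second set of deposited columns holds FPKM, which the authors scaled by length and depth. In the submitters' notes the aligner is HISAT and the build GRCm38.p6. Versions are not given in the sources used here, and strand is not stated.

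Depth was 17408954 to 18176939 estimated counts per library, and its precision is carried by the replicate spread. Estimated counts were rounded and tested on the whole table with edgeR 4.0.16 (R 4.3.3, TMM, quasi-likelihood test, Benjamini-Hochberg, threshold 0.05), keeping genes whose FPKM averaged 0.5 or more, 13494 genes for 4 libraries and 13809 for 6. Comparisons were OE against Con over libraries 1 and 2 and over all pairs with the D7 label as a term, D7 against D0 with genotype as a term, library 2 against library 1, and the interaction of genotype with the D7 label. DESeq2 1.42.0, RLE scaling, no filter and leaving out each library were alternatives. The SE given with edgeR values is approximate, the absolute log2 fold change over the square root of the test's F statistic. Ratios within pairs used log2 of FPKM plus 0.5. Genes were placed by gene number with the RefSeq table of GRCm38.p6, which matched 19340 of 19489, and bins of 20 genes dropped an incomplete last bin per chromosome. The 4 promoter motifs were searched on both strands.

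The pairing check used 12565 genes whose FPKM averaged 1 or more. Deviations from the genotype mean correlated at 0.86, 0.73 and 0.87 between OE and Con libraries of the same number and at -0.02 or below otherwise, and are held to sum to 0 over 3 libraries. The pairing comes from the numbers in the labels and this check, and no source states shared handling.

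Members, role groups and marker lists were chosen with earlier results of these data known. Values in every library are given for members called with the block, the 8 lowest and 4 highest mean ratios, the 5 most abundant, the 6 smallest p-values in D7 against D0, the 2 nearest the FPKM limit on each side, the 3 first and 3 last with their neighbours, and *Atrip* with *Trex1*. *Setd2*, *Kif15* and *Gorasp1*, and members named within their role group, were added after their values were seen. The fits were also run on counts simulated from their own fitted means and spread, with added changes larger than the members' median difference. Recovery of differences as small as that median was not checked.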

Additional observations from a re-analysis of the deposited data

How the results depend on the processing

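Counts of called members within 1.5 times, and medians within the spread between pairs or genotypes, made up 126 of 166 alternative values of the summaries, and 40 moved further. Members called lower in OE over libraries 1 and 2 numbered 0 without and 4 with the replicate block, 3 with the block and RLE scaling, and 0 with the block and DESeq2 or no filter. Over all 3 pairs the replicate block gave 0, DESeq2 with it 4, and the block without each pair in turn 0 to 4, with medians of -0.20, -0.22 and -0.21 without pair 1, pair 2 and the D7 pair. The block with RLE, without filter or without a pair was added after seeing the data. Leaving out each library in turn, the members' median log2 fold change was -0.28 to -0.12 over libraries 1 and 2, -0.25 to -0.18 over all pairs, and -0.12 to 0.082 for the interaction, whose replicate block, added after seeing the data, called 1 member lower. *Smarcc1* ranged from -0.72 without Con-2 to 0.070 without Con-1. In D7 against D0, the members' median of -0.0018 was -0.017 to 0.071 without each library in turn, no filter gave 1 member lower, DESeq2 gave 7 higher, and leaving out each library gave 0 to 2 lower and 0 to 7 higher, with 7 higher without Con-2 and 1 lower and 1 higher without OE-1 or OE-2. In library 2 against library 1, no filter gave a median of -0.16 and DESeq2 called 11 lower and 4 higher. The median ratio of pair 1 was -0.23 centred on all genes, -0.23 with TMM-scaled counts and -0.15 over every gene of the stretch. That of pair 2 was -0.17 centred and -0.20 with TMM. That of the D7 pair was -0.20 with TMM, -0.20 at a mean FPKM of at least 10 and -0.14 without 9 members. Those 9 were the members that overlap another measured gene, with the adjoining *Atrip* and *Trex1*, and other members that adjoin a gene were kept. The causes were not tested. Of single genes, 62 values lost their call and 35 kept it. Over all genes, the blocked fit of libraries 1 and 2 called 17 lower and 103 higher, the unblocked 0. No paired fit was possible for D7 against D0, because each pair lies within D7 or D0, and library 2 against library 1 without a library and the interaction without a D7 library could not be fitted.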

Other observations

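Unlisted genes of the same stretch included 2 of the most abundant genes of the cell. *Rpsa*, which encodes a protein of the small ribosomal subunit, had log2 OE/Con ratios of -0.16, -0.29 and -0.48 in pair 1, pair 2 and the D7 pair, at a mean of 1603 FPKM. *Rpl14*, for a protein of the large subunit, had -0.11, -0.26 and -0.37 at a mean of 954 FPKM. Both were lower in OE in every pair. *Rps27rt*, at a mean of 121 FPKM, went the other way in every pair, with 0.35, 0.91 and 0.48, and reads of a near-identical ribosomal protein copy could be divided with it. *Zfp105* had 0.03, 0.37 and -0.85, and *Eomes*, a transcription factor gene of trophoblast and mesendoderm, had 0.39, 0.10 and -0.68, so that both changed side in the D7 pair. *Cdcp1* had log2 D7/D0 ratios of 3.17 in OE and 2.56 in Con. These genes were named after their values were seen, and none of these ratios was tested here.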
